A study of Quercus lobata with 12 samples.

Results

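Leaf RNA of valley oak (Quercus lobata) seedlings was extracted on different days of October, and the comparison reported here set the 6 seedlings extracted early, on day 16 or day 19, against the 6 extracted late, on day 30. All 12 of the 12 seedlings sequenced entered it, each chosen by the extraction date in its label and by no measured value. The early seedlings were HV-11-05, HV-11-33, LAY-15-30 and LAY-15-34 of day 19 and YORK-09-03 and YORK-09-08 of day 16, and the late seedlings were HV-11-34, HV-11-40, LAY-15-03, LAY-15-09, YORK-09-10 and YORK-09-37. Each side held 1 control and 1 treated seedling of each of 3 families, so family and treatment were balanced over extraction time, and the seedlings formed 6 pairs of an early and a late seedling of the same family and treatment. The spray, given for 27 days from an age of about 5 months, was 50 µM 5-Azacytidine in the surfactant TWEEN 20 for treated seedlings and TWEEN 20 alone for controls.

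RNA extraction breaks the cells of a frozen leaf and separates its RNA from DNA, protein and the phenolics and polysaccharides that are abundant in oak leaves, so the yield and integrity of the RNA can vary between extractions. Samples extracted on the same day share reagents and handling, and the extraction day is therefore commonly treated as a batch in RNA-seq models, as it was in the model of this study. 5-Azacytidine is a cytosine analog that cannot be methylated and lowers DNA methylation in dividing tissue.

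The tissue of all seedlings was collected on a single day in June and kept frozen, and all libraries were constructed together in November, so the early and late groups differed in the day of extraction and not in the day of sampling. Each seedling was a separate plant grown from an open-pollinated acorn of its family's mother tree, so 2 seedlings of a family are related but not genetically identical. Day 16 held only YORK-09 seedlings, and a difference between day 16 and day 19 cannot be told apart from a difference between families. The 4 seedlings of day 19 were also those that the study selected for bisulfite sequencing, for the clearest differences in phenotype between treated and control plants, and in HV-11 and LAY-15 this selection and the extraction day cannot be told apart. The measured RNA integrity of the extracts was not used here.

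The libraries held between 9926728 and 11570198 counts over 39373 genes, and 23791 genes passed the filter on low counts. The early libraries held 10962599 ± 694131 counts (mean ± SD, n = 6) and the late libraries 10638344 ± 487441, and the early library was the larger in 5 of 6 pairs. In the early libraries 26232 ± 575 genes were counted after all libraries were brought to the smallest total, compared to 26396 ± 568 in the late libraries. The 100 most counted genes held 25.3 ± 5.27% of the counts in early and 28.8 ± 4.91% in late seedlings, and the early share was lower in 5 of 6 pairs. None of the 7 library measures compared differed beyond the spread between pairs (two-sided exact permutation test over the 64 swaps of early and late within pairs, smallest p = 0.281, smallest adjusted p = 0.602), and the smallest p that these swaps allow is 0.0312.

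Some of these measures ran in different directions in pairs of HV-11 and YORK-09. In YORK-09, the 100 most counted genes held 23.9% and 17.9% of the counts in the early seedlings and 31.5% and 31.8% in the late seedlings. In HV-11 the control pair ran the same way, with 23.2% early and 25.8% late, and the treated pair the opposite way, with 31.2% early and 21.2% late. The number of genes counted at the smallest total was lower in both early HV-11 seedlings (25384 and 26346) than in the late ones (27249 and 26871), and higher in both early YORK-09 seedlings (26555 and 27050) than in the late ones (25999 and 25854). The difference between the families was not tested for these measures, and their part in the gene comparisons of HV-11 and YORK-09 was not tested.

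**Figure D1:**
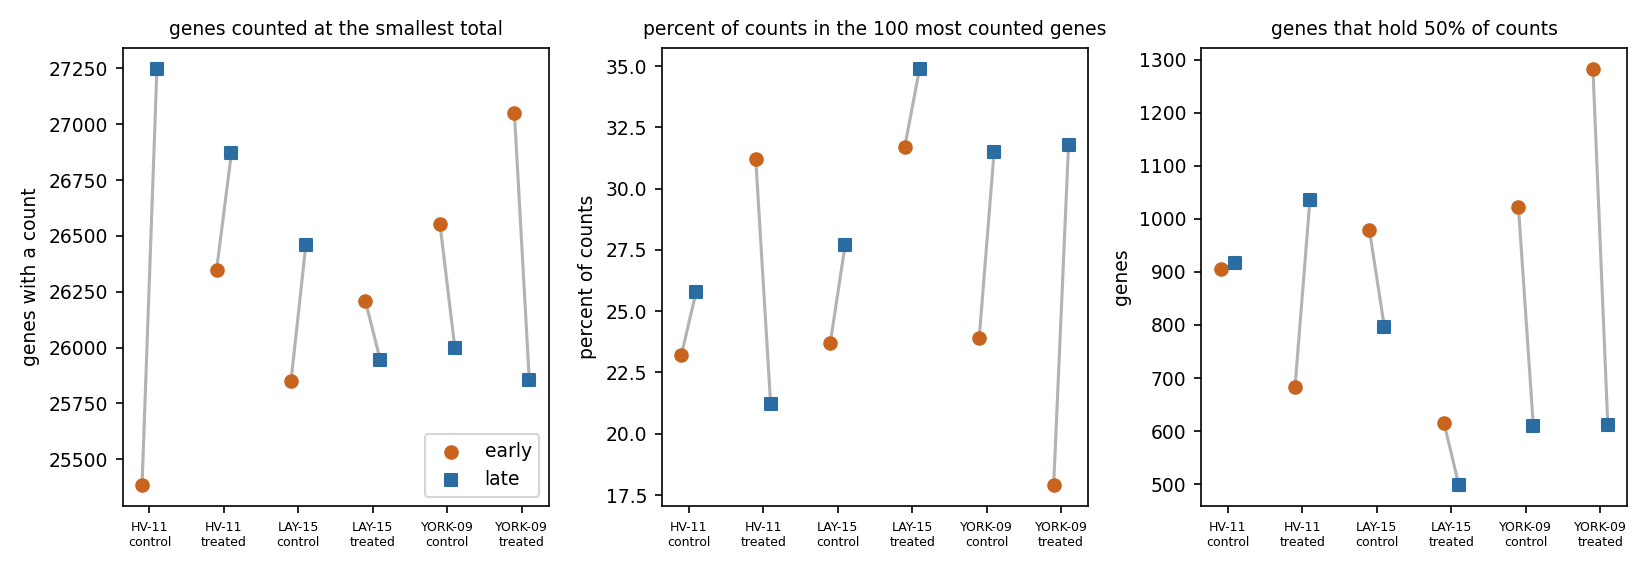
Library measures of each early (circle) and late (square) seedling, joined within the 6 pairs of the same family and treatment. The panels give the number of genes with a count at the smallest total, the percent of counts in the 100 most counted genes, and the number of genes that hold 50% of the counts. In YORK-09 the early seedlings had more genes counted (26555 and 27050 against 25999 and 25854), and in HV-11 fewer.

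Extraction time accounted for 9.13% of the variation in expression over all seedlings, measured on squared distances after the variance stabilizing transformation, which puts counts on a scale close to log2. This was 13.9% of the variation left after family and treatment, which together took 34.2%. The 64 swaps of early and late within pairs gave shares between 5.15% and 13.5% with a mean of 8.78%, so the share of the true labels lay near the middle (one-sided exact permutation test, p = 0.5). The expression profiles of the 6 pairs lay at similar distances, between 125 and 130, except for the LAY-15 control pair at 181.

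Distances between early seedlings of different families averaged 163 (range 124 to 206), compared to 122 (range 104 to 139) between late seedlings, and the early distance was the larger in 10 of the 12 matching combinations. The difference of 40.8 did not exceed the spread over the 64 swaps of early and late within pairs (two-sided exact permutation test, p = 0.156), a comparison chosen after the distances had been seen. Without LAY-15 the difference was 10.7, and without HV-11 it was 76.4. The biological coefficient of variation, the relative spread between seedlings that edgeR estimates, was 0.613 among early and 0.518 among late seedlings. With family and treatment in the model, each value rested on 2 residual degrees of freedom, and their difference was not tested.

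**Figure D2:**
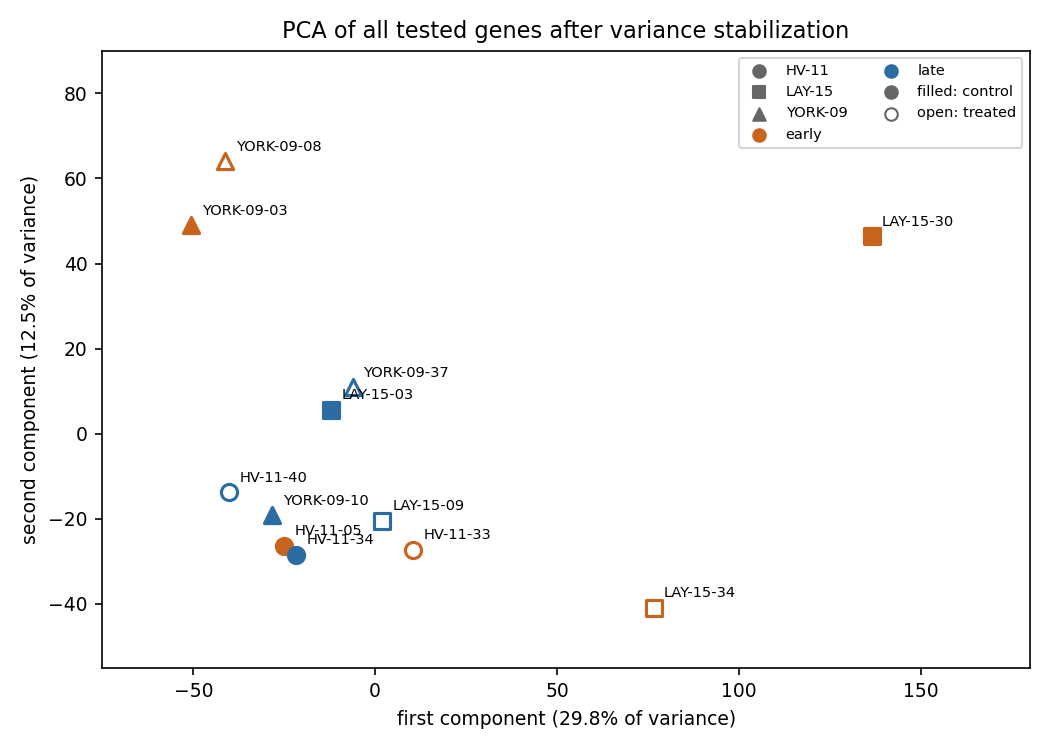
Principal component analysis of the 23791 tested genes after the variance stabilizing transformation. Color gives extraction time, shape the family and filling the treatment. Both early LAY-15 seedlings lay at the high end of the first component (29.8% of the variance), both early YORK-09 seedlings at the high end of the second (12.5%), and the late seedlings of all families lay between.

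On the principal components the early seedlings of LAY-15 and YORK-09 stood apart in different directions. The first component held LAY-15-30 at 136.5 and LAY-15-34 at 76.55, and the other 10 seedlings between -50.61 and 10.45. The second component held YORK-09-03 at 48.99 and YORK-09-08 at 64.01, and among the others only LAY-15-30, at 46.44, came near. The early HV-11 seedlings lay close to the late seedlings on both components.

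Over all families, 0 of 23791 genes (0.00%) differed between early and late seedlings with edgeR at an adjusted p under 0.05, with family and treatment in the model. The smallest adjusted p was 0.578. An unadjusted p under 0.05 was reached by 891 genes (3.75%), 535 higher and 356 lower in early seedlings. Where no gene differs, a share of about 0.05 of the tested genes would reach it, which is more than the 3.75% here. The shares at this level in the comparisons below are to be read beside the same reference. Without LAY-15-09 there were 260 higher and 293 lower, and without LAY-15-03 there were 300 higher and 312 lower. DESeq2 with the same model called 57 genes (0.240%), 15 higher and 42 lower in early seedlings, and 1922 genes at an unadjusted p under 0.05. All 57 had the same direction in edgeR, and 54 of them had an unadjusted p under 0.05 there.

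The 57 genes called by DESeq2 were mostly low in one of the groups. The 15 higher in early seedlings had a median of 7.30 CPM (counts scaled to a common library size, with TMM factors) early and 0.464 CPM late, and the 42 lower had a median of 4.09 CPM early and 15.1 CPM late. The median log2 fold change, early minus late, was 3.69 for the former and -3.12 for the latter. With genes that had at most 3 counts in every seedling of the lower group set at the bound of 3 counts per library, the medians were 3.20 and -2.89. Of the 57 genes, 33 had the same direction in 6 of 6 pairs, beside 2.92% of all tested genes. In 6 the early and late values did not overlap, beside 0.206% of all tested genes. The 57 were chosen by these same values, so both counts are a description. Which genes were called depended on the seedlings: without LAY-15-03, 36 genes were called, 20 of them among the 57, and without YORK-09-37, 216 genes were called, 44 of them among the 57.

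Across all tested genes, the values of the early and late groups did not overlap for 49 genes (0.206%), 33 higher and 16 lower in early seedlings. The direction was the same in 6 of 6 pairs for 695 genes (2.92%), with 462 higher and 233 lower in early seedlings. Of the 891 genes at an unadjusted p under 0.05, 339 had the same direction in all 6 pairs and 42 did not overlap. The 891 were chosen by the same values, so this is a description.

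The 535 genes higher in early seedlings at this level had a median log2 fold change of 0.979, and the 356 lower a median of -1.42, beside 0.0242 over all tested genes. With the genes at the limit of 3 counts set at their bound, the medians were 0.971 and -1.34. The share of genes at this level was 4.20% in the least abundant 5948 genes and 3.30% in the most abundant 5948. The median standard error of the log2 fold change was 0.884 in the former and 0.251 in the latter. Small differences were therefore harder to detect among rarely counted genes. The parts of sequencing depth and of the spread between seedlings in this error were not separated.

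The table names genes by identifiers only, and the files do not pair them with gene names or functions, so roles cannot be given and the labelled leaf tissue could not be checked against marker genes. The 2 genes higher and the 2 lower in early seedlings with the smallest p-values are identified, and other genes are described by their rank.

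QL07p001183 had the smallest p-value. As whole leaf tissue was measured, fewer cells of a type and less RNA per cell cannot be told apart for this gene or the following ones. Its expression in early seedlings was 9.34 and 2.05 CPM in HV-11, 3.89 and 0.499 CPM in LAY-15 and 30.2 and 16.4 CPM in YORK-09, control before treated, and in the late seedlings of the same order 1.33, 0.617, 0.201, 0.107, 3.72 and 2.19 CPM. The early seedling was the higher in 6 of 6 pairs, while the groups overlapped: LAY-15-34, early, stood below 4 of the late seedlings. The means were 10.4 ± 11.3 CPM early and 1.36 ± 1.40 CPM late (SD, n = 6). The log2 fold change was 2.84 ± 0.39 (SE), with an adjusted p = 0.578 in edgeR and 1.79e-06 in DESeq2. By family, the fitted difference on the log2 scale was 3.44 for LAY-15, 2.95 for YORK-09 and 2.32 for HV-11.

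QL08p039358 was counted almost only in the early seedlings of LAY-15. It had 377 counts (37.6 CPM) in LAY-15-34, 17 counts (1.65 CPM) in LAY-15-30, 2 counts in HV-11-33 and 0 counts in the other 3 early seedlings. Of the late seedlings, LAY-15-09 had 1 count and the other 5 had 0. The mean of the early seedlings, 6.58 ± 15.2 CPM, was at least 22.8-fold higher than the late limit of 3 counts per library. Its edgeR unadjusted p of 4.85e-05 gave an adjusted p of 0.578, and the DESeq2 adjusted p was 0.72. The early mean rested on a single seedling, LAY-15-34, and the groups overlapped at 0.

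QL09p040424 was lower in the early seedling of every pair. Early expression was 36.9 and 32.4 CPM in HV-11, 15.3 and 17.1 CPM in LAY-15 and 16.5 and 15.8 CPM in YORK-09, control before treated, and late expression was 64.9 and 40.5 CPM, 41.8 and 36.0 CPM, and 38.0 and 32.1 CPM. The groups overlapped only through the early HV-11 seedlings, which stood above the lowest late seedling. The means were 22.3 ± 9.69 CPM early and 42.2 ± 11.6 CPM late (SD, n = 6). The log2 fold change was -0.98 ± 0.17 (SE), with an adjusted p of 0.952 in edgeR and 7.5e-05 in DESeq2. By family, it was -1.25 for LAY-15, -1.11 for YORK-09 and -0.59 for HV-11.

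QL10p003218 was also lower in the early seedling of all 6 pairs. Early expression was 6.26 and 18.1 CPM in HV-11, 19.5 and 28.1 CPM in LAY-15 and 17.7 and 36.0 CPM in YORK-09, and late expression was 34.1 and 25.4 CPM, 52.0 and 70.0 CPM, and 44.6 and 58.4 CPM in the same order. HV-11 had the lowest mean at both times, and the groups overlapped because the late HV-11 seedlings stood below some early seedlings of the other families. The means were 20.9 ± 10.1 CPM early and 47.4 ± 16.3 CPM late (SD, n = 6). The log2 fold change was -1.28 ± 0.24 (SE), with an adjusted p of 0.952 in edgeR and 0.00242 in DESeq2. It was -1.73 in controls and -0.83 in treated seedlings, and this difference did not pass the interaction test (edgeR, unadjusted p = 0.0515).

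**Figure D3:**
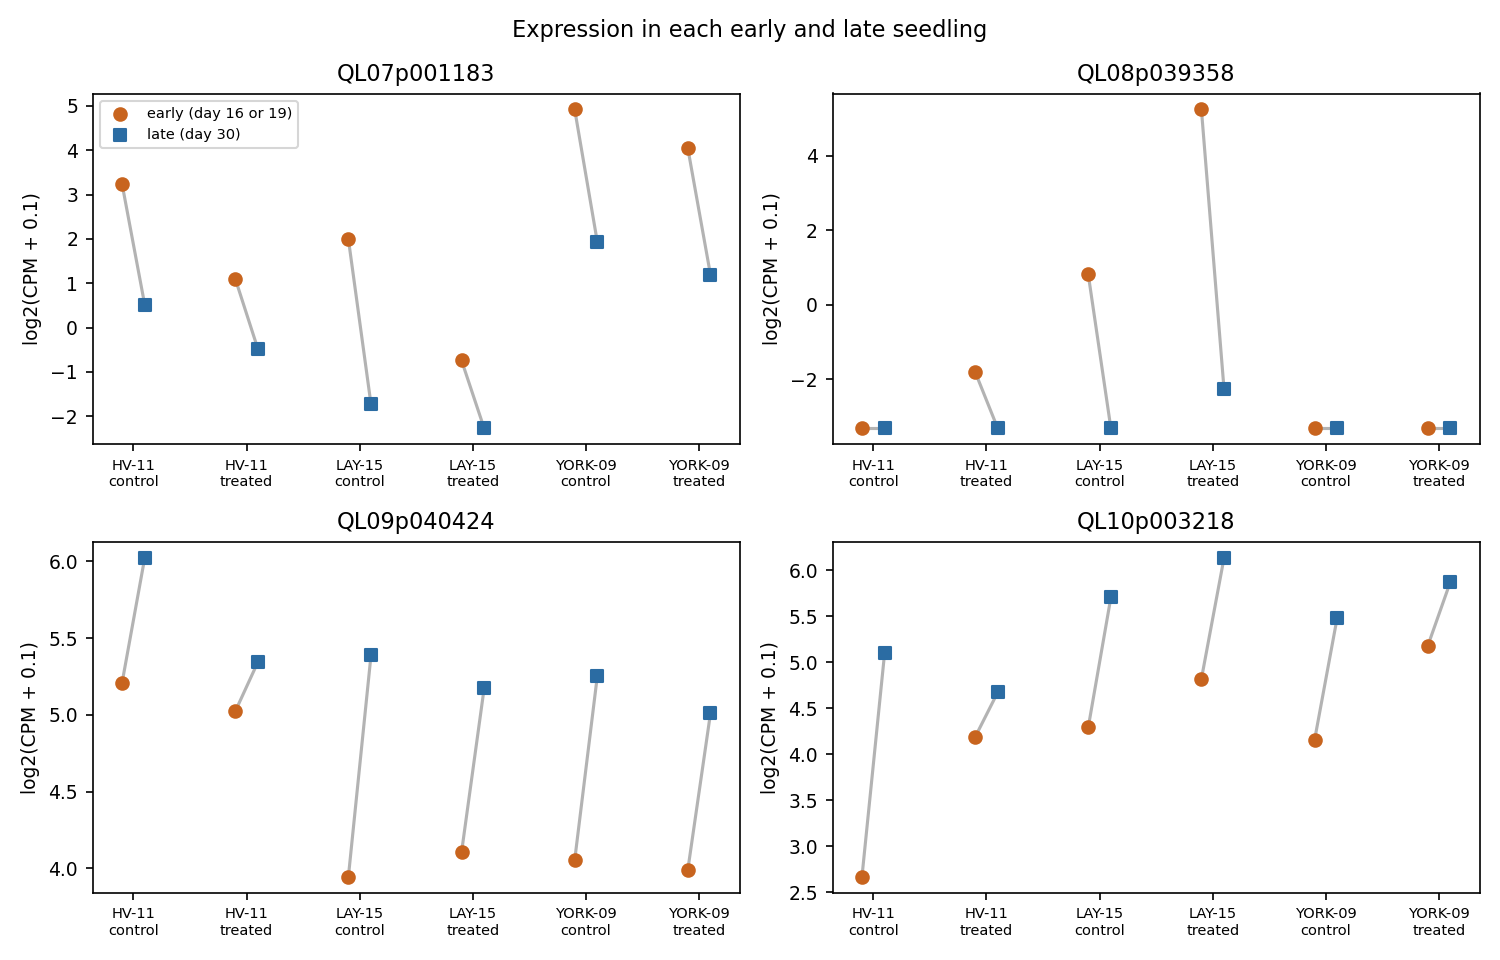
Expression of the 4 identified genes in each early (circle) and late (square) seedling, as log2 of CPM plus a pseudocount of 0.1, joined within pairs of the same family and treatment. QL07p001183 was higher and QL09p040424 and QL10p003218 were lower in the early seedling of 6 of 6 pairs, while QL08p039358 rested on LAY-15.

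The next 8 genes in each direction had edgeR adjusted p-values of 0.952 or more. They were ranked by these same values, so their agreement over pairs and their separation are a description. Of the 8 higher in early seedlings, 5 were higher in 6 of 6 pairs and 1 did not overlap between groups. That gene had between 0.486 and 2.47 CPM in early and between 0.0881 and 0.214 CPM in late seedlings. The first of the 8 was counted mainly in LAY-15, with 25.2 and 8.49 CPM in its early seedlings and at most 0.186 CPM in each of the other 10. Of the 8 lower in early seedlings, 7 were lower in 6 of 6 pairs and 2 did not overlap between groups. The more abundant of these 2 had between 9.34 and 50.4 CPM in early and between 54.2 and 125 CPM in late seedlings, with a log2 fold change of -1.87.

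The comparison was also made within each treatment. In the 3 early and 3 late controls, 0 genes (0.00%) were called with edgeR and 1355 (5.70%) had an unadjusted p under 0.05, 571 higher and 784 lower in early seedlings. In treated seedlings, 0 genes (0.00%) were called and 646 (2.72%) had an unadjusted p under 0.05, 381 higher and 265 lower. The test of whether the difference itself depended on treatment called 0 genes (0.00%), with 1100 (4.62%) at an unadjusted p under 0.05. DESeq2 called 299 genes (1.26%) in controls, 35 (0.147%) in treated seedlings and 165 (0.694%) in the test of the difference.

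The differences of controls and of treated seedlings, which share no seedling, were nearly unrelated across genes (Pearson r = 0.042, Spearman rho = 0.076 over 23791 genes, a description across genes that are not independent). The sign was the same for 53.7% of genes. At an unadjusted p under 0.05 in both were 80 genes, which was 5.90% of those in controls, beside 2.72% of all tested genes in treated seedlings, and 12.4% of those in treated seedlings, beside 5.70% of all tested genes in controls. Of the 80 genes, 42 had the same direction and 38 the opposite. The p-values of controls and of treated seedlings came from the same fit with a shared spread, so this overlap is a description.

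Of the 3 families, LAY-15 had the most genes at either threshold. With 2 early and 2 late seedlings, edgeR called 6 genes there (0.0252%), 1 higher and 5 lower in early seedlings, and 3589 genes (15.1%) had an unadjusted p under 0.05, 2190 higher and 1399 lower. In HV-11, 0 genes (0.00%) were called and 1039 (4.37%) had an unadjusted p under 0.05, 324 higher and 715 lower. In YORK-09, 0 genes (0.00%) were called and 1588 (6.67%) had an unadjusted p under 0.05, 976 higher and 612 lower. With DESeq2, LAY-15 had 1975 called genes (8.30%), YORK-09 had 388 (1.63%) and HV-11 had 156 (0.656%).

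**Figure D4:**
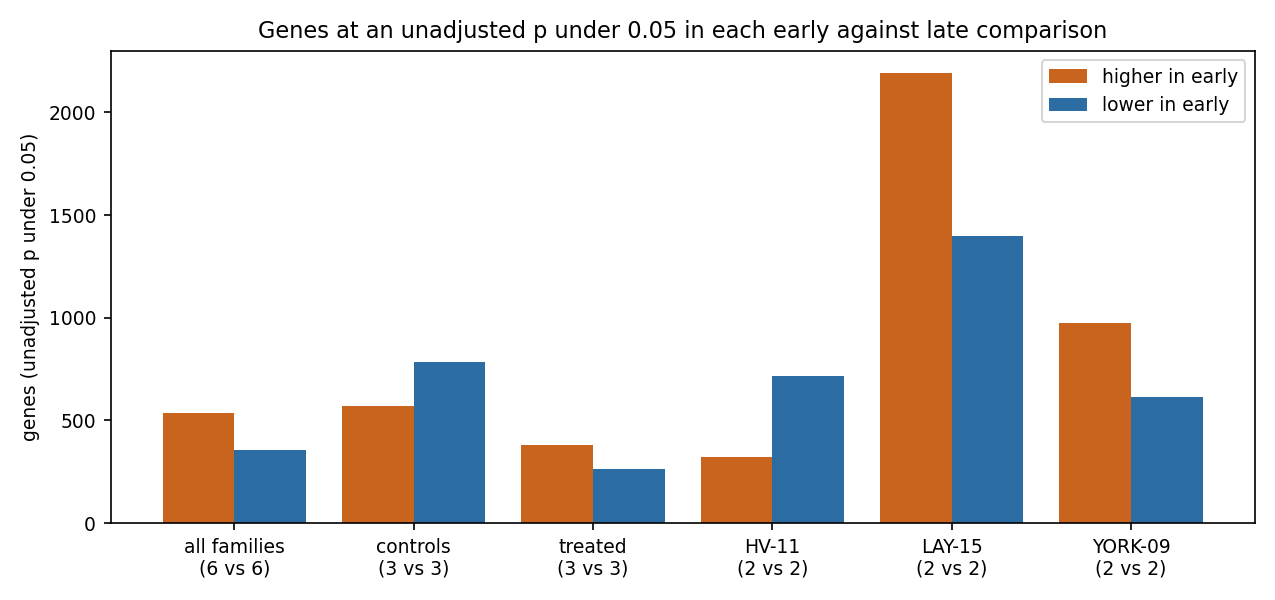
Number of genes at an unadjusted p under 0.05 (edgeR) that were higher or lower in early seedlings, for the comparison over all families, within each treatment and within each family. LAY-15 stood highest, with 2190 higher and 1399 lower genes.

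In the 6 genes called in LAY-15, the values of its early and late seedlings did not overlap. This is a description, since the genes were chosen by this same comparison. The one that was higher reached 131 CPM in LAY-15-30 and 376 CPM in LAY-15-34, while the late LAY-15 seedlings had 0 and 0.643 CPM. In HV-11 and YORK-09 this gene stayed between 0.103 and 1.49 CPM at both times. The first of the 5 lower genes had 0.875 and 1.30 CPM in the early and 27.2 and 30.5 CPM in the late seedlings of LAY-15, a log2 fold change of -4.74 with an edgeR adjusted p of 0.0261. In the other families it lay between 32.3 and 64.7 CPM at both times. The most pronounced of the 5 had 0.0972 and 0.0998 CPM in the early LAY-15 seedlings, a single count each, compared to 55.7 and 90.5 CPM in the late ones.

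These calls depended on single seedlings. With HV-11-34, HV-11-40, YORK-09-10 or YORK-09-37 left out, 0 genes were called in LAY-15. With YORK-09-03 or YORK-09-08 left out, 2 genes were called, and with HV-11-05 or HV-11-33 left out, 8 genes. Leaving out a LAY-15 seedling leaves a single seedling of the family at that time, so calls of those fits are not given. In a fit of the 4 LAY-15 seedlings alone, 0 genes were called. LAY-15-30 and LAY-15-34 are a control and a treated seedling, and the differences of the LAY-15 control and treated pairs had a Pearson r of 0.364 across genes, compared to -0.014 in HV-11 and 0.087 in YORK-09.

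The 3 leading genes of HV-11, ranked by p-value, stood in consecutive rows of the table. None had a count in HV-11-05, and in HV-11-33 only the last of them was counted, at 0.0932 CPM. The late HV-11 seedlings had 19.4 and 17.5 CPM of the first, 43.9 and 41.8 CPM of the second and 17.3 and 14.5 CPM of the last. The edgeR adjusted p-value was 0.0505 for the first 2 of these genes. The early LAY-15 seedlings also had less of the first gene (4.67 and 6.39 CPM) than the late ones (33.0 and 34.2 CPM), while the early YORK-09 seedlings had more (61.5 and 88.7 CPM against 46.6 and 26.3 CPM). The first gene higher in early HV-11 seedlings had 4.63 and 3.08 CPM early and 0 counts in both late seedlings.

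In YORK-09 the first gene had 16.6 and 21.7 CPM in the early and 0.103 and 0.190 CPM in the late seedlings (log2 fold change 6.92, edgeR adjusted p = 0.146). The same gene ran the other way in HV-11, with 0.171 and 0.652 CPM early and 14.2 and 13.8 CPM late. In LAY-15 it was counted in all 4 seedlings, between 14.8 and 35.5 CPM. The first gene lower in early YORK-09 seedlings had 0 counts in both of them and 8.68 and 17.7 CPM in the late ones.

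A minority of the genes at an unadjusted p under 0.05 were followed by another such gene of the same direction in the table of tested genes. In LAY-15, the next row also held a gene at this level in the same direction for 13.7% of these genes, compared to 7.91% of all tested genes being at this level in the direction of a given one of them, on average. The shares were 7.80% and 2.49% in HV-11, 10.4% and 3.51% in YORK-09, and 5.61% and 1.95% over all families.

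The test of whether the early against late difference itself differed between families called 0 genes with edgeR (0.00%), with a smallest adjusted p of 0.0979, while 2759 genes (11.6%) had an unadjusted p under 0.05 and DESeq2 called 1377 (5.79%). The gene with the smallest p-value in this test was the first gene of YORK-09 described above. The next 2 were among the 6 genes called in LAY-15, and the 2 after them were the first 2 of HV-11.

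The families share no seedling, so their differences can be set against each other. Their p-values, however, came from the same fit, with a spread shared over all seedlings. Overlaps between families of genes at an unadjusted p under 0.05 are therefore not independent, and their shares beside those of all tested genes are a description. Between HV-11 and YORK-09 the differences, averaged over both pairs of a family, ran in opposite directions for most genes, and 40.1% of genes had the same sign. Pearson r was -0.203 and Spearman rho -0.241, a description across 23791 genes that are not independent. The control pairs of the 2 families did not show this, with a Pearson r of 0.07, compared to -0.245 between their treated pairs. It was -0.164 for the HV-11 control with the YORK-09 treated pair, and -0.083 for the HV-11 treated with the YORK-09 control pair. Of the 223 genes with an unadjusted p under 0.05 in both, 197 (88.3%) had opposite directions, and 160 of these were lower in early HV-11 and higher in early YORK-09 seedlings. The 223 genes made up 21.5% of the genes of HV-11 at this level, beside 6.67% of all tested genes in YORK-09, and 14.0% of those of YORK-09, beside 4.37% in HV-11.

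The 160 genes had intermediate levels in LAY-15. Their median expression was 3.77 and 2.56 CPM in the early and 16.9 and 20.3 CPM in the late HV-11 seedlings. In YORK-09 it was 20.5 and 21.8 CPM early and 4.19 and 3.24 CPM late, so that early HV-11 seedlings were near late YORK-09 seedlings and late HV-11 seedlings near early YORK-09 seedlings. In LAY-15 it was 5.25 and 5.89 CPM early and 11.7 and 5.03 CPM late. There, 8 of the 160 genes were higher and 35 lower in early seedlings at an unadjusted p under 0.05. Of all 23791 tested genes, 2190 were higher and 1399 lower at this level in LAY-15. These genes were chosen by their values in HV-11 and YORK-09, and the medians of those families are a description.

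The differences of LAY-15 were only weakly related to those of the other families. With HV-11 its differences had a Pearson r of 0.107, and of 220 genes at an unadjusted p under 0.05 in both families, 154 had the same direction and 106 of these were lower in early seedlings. The 220 genes were 21.2% of those of HV-11, beside 15.1% of all tested genes at this level in LAY-15, and 6.13% of those of LAY-15, beside 4.37% of all tested genes in HV-11. With YORK-09 the Pearson r was -0.108, and of 317 shared genes 219 had opposite directions. The 317 genes were 8.83% of those of LAY-15, beside 6.67% of all tested genes in YORK-09, and 20.0% of those of YORK-09, beside 15.1% in LAY-15.

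**Figure D5:**
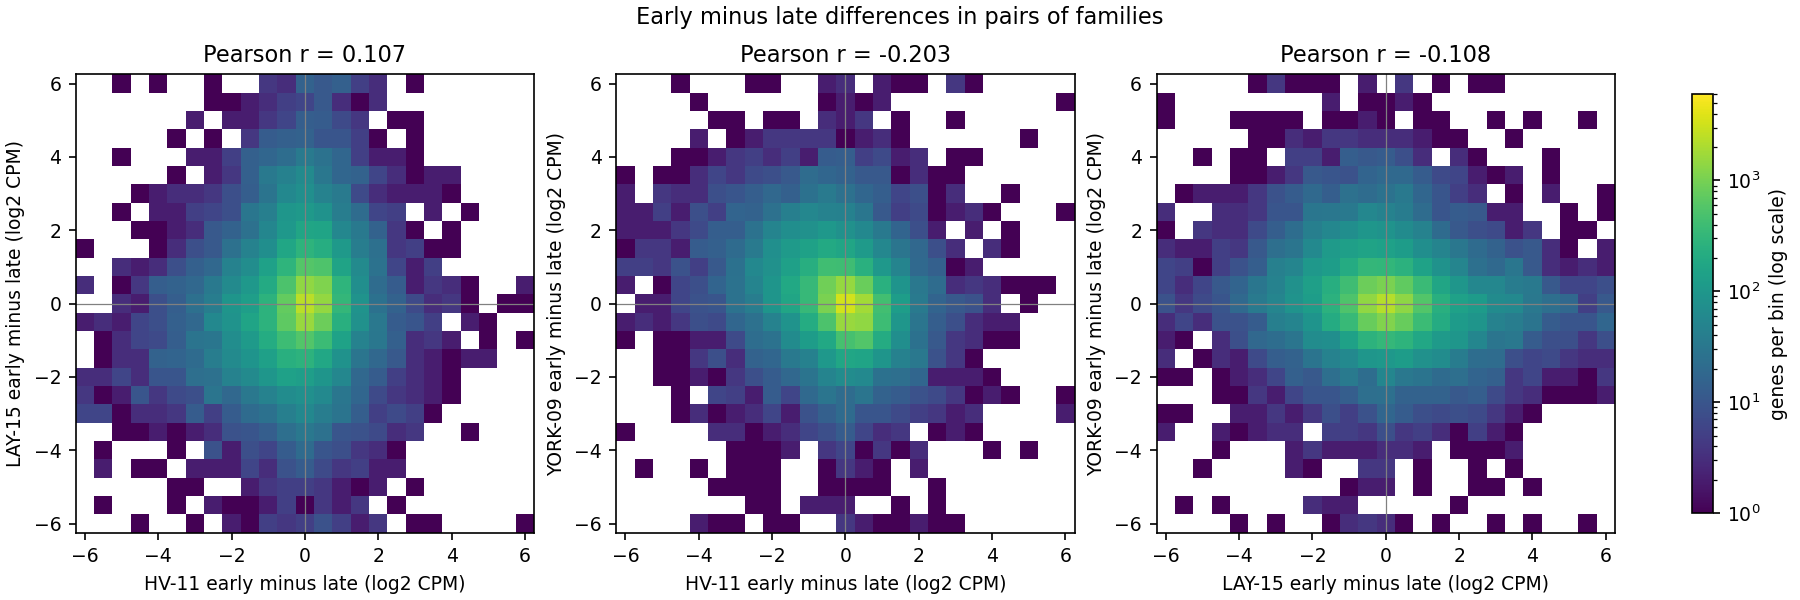
Early minus late differences (log2 CPM) of the 23791 tested genes in each pair of families, as the number of genes per bin of 0.5 on a log color scale, with values beyond 6 drawn at the edge. The cloud leaned against the diagonal for HV-11 with YORK-09 (Pearson r = -0.203) and weakly along it for HV-11 with LAY-15 (0.107).

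Of the 23791 tested genes, 56 had an unadjusted p under 0.05 in all 3 families. Of these, 3 had a single direction, 2 higher and 1 lower in early seedlings. The numbers expected by chance were not computed and the p-values rest on a shared spread, so both counts are a description. The first of the 3 was QL07p001183. The second, lower in early seedlings in 6 of 6 pairs, had between 2.60 and 5.89 CPM in early and between 4.38 and 17.7 CPM in late seedlings. The last, higher in early seedlings, was the gene at low expression described above whose groups did not overlap.

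Some genes were counted only or almost only at a single extraction time. Counting genes with at least 10 counts in 2 or more seedlings of one time and at most 3 counts in every seedling of the other, 141 genes were found for early and 64 for late seedlings. Of the 141 early genes, 103 reached 10 counts in 1 family alone (83 of them in LAY-15) and 4 in all 3 families. Of the 64 late genes, 19 did so in 1 family alone (5 of them in LAY-15) and 1 in all 3. These numbers stand beside 33411 genes with a count in any seedling. They were not tested and are a description. With 0 counts required at the other time, 14 early and 17 late genes were found, 6 and 3 of them in LAY-15 alone.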

How the data were processed

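Leaf RNA-seq counts of 12 seedlings were taken from the deposited table, which holds whole-number read counts per gene with no normalization by the authors. The authors trimmed reads with Cutadapt 2.3, mapped them with STAR 2.7.1 to a Quercus lobata assembly, discarded reads with several alignments (SAMtools 1.9) and duplicates made by the sequencing platform (Picard 2.20.3), and counted reads per gene with HTSeq 0.11.1. Near-identical gene copies can lose reads to the multi-mapping filter. The strand option and annotation version are not given in the sources used here, and overlapping or antisense genes cannot be told apart. All columns were used.

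Groups came from the extraction dates in the labels. Totals ran from 9926728 to 11570198 counts, and no column repeated another (chi-square of counts divided by its degrees of freedom, 33.2 to 189 for the 66 pairs of columns). Genes with low counts were removed with filterByExpr (min.count 10 and min.total.count 15, family and treatment combinations as groups), and TMM normalization gave the CPM values. Differences were tested by the quasi-likelihood test of edgeR 4.0.16 in R 4.3.3, with family and treatment as covariates, and with DESeq2 1.42.0 as the alternative. An adjusted p-value under 0.05 (Benjamini-Hochberg over all tested genes) was counted as a call. Tests within families and within treatments used 1 fit over all seedlings, so that the spread was shared. Standard errors were approximated from the F statistic. Single values were tested by exact permutation, swapping early and late within pairs (SciPy 1.17.1), and figures were drawn with matplotlib 3.10.9. Intervals of counting error are not given, since the spread between seedlings exceeded it. The scripts were tested on simulated data.

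The genes identified were the 2 higher and the 2 lower in early seedlings with the smallest p-values, and the genes described by rank were the next 8 in each direction and the first of each direction in each family. The genes called in LAY-15, the first 3 of HV-11, the first 5 of the test between families, the sets chosen by direction in 2 or 3 families, the neighbouring rows, the genes counted at a single time, and the distances between families were chosen after their values were seen. Of the 39373 identifiers, 0 matched the RefSeq gene table, so gene lists, tissue markers and sequences could not be used. The comparison and its rules were chosen with earlier results of these data known. Alternatives were median-ratio size factors, DESeq2, other filters and covariates, each pair as a block, log2 of CPM plus 1, the most variable genes, and leaving out seedlings, pairs and families.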

Additional observations from a re-analysis of the deposited data

Results flagged for a closer look

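Of 22 groups of 6 values (4 genes and 7 library measures, early and late), 3 had a value far from the other 5. The rule used flags about 1 in 20 groups of normally distributed values. The 4 genes were chosen by their p-values, and QL08p039358 had 0 counts in most seedlings, so that rate does not apply to them. In QL08p039358 this was LAY-15-34 among early seedlings (gap of 0.956 of the range) and LAY-15-09, with a single count, among late seedlings (gap of 1 of the range). In QL09p040424 it was HV-11-34 among late seedlings, at 64.9 CPM (gap of 0.704 of the range).

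Several early minus late differences ran in opposite directions in both pairs of one family and both pairs of another, and the differences between families were not tested for these values. For library measures, the mean difference of HV-11 minus that of YORK-09 was -0.256 for the TMM factor, -2030 for genes counted, -2071 for genes counted at the smallest total and -724 for the number of genes that hold 50% of the counts. For the last measure, HV-11 minus LAY-15 was -332. For the first gene higher in early HV-11 seedlings, the mean difference was 5.67 CPM greater in HV-11 than in LAY-15. For the first gene lower in early HV-11 seedlings, HV-11 minus YORK-09 was -57.1 CPM and LAY-15 minus YORK-09 was -66.7 CPM. For the first gene higher in early YORK-09 seedlings, HV-11 minus YORK-09 was -32.6 CPM.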

How the results depend on the processing

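Over all families, edgeR called 0 genes in each of the 22 alternative fits, with smallest adjusted p-values between 0.109 and 1, and DESeq2 called 57. The 4 identified genes had the same direction in all 91 alternative values. They were chosen by their p-values in these same seedlings, so the kept direction is a description. The edgeR log2 fold changes were 2.61 to 3.14 for QL07p001183, 2.08 to 7.89 for QL08p039358, -1.19 to -0.86 for QL09p040424 and -1.41 to -1.10 for QL10p003218. The 2.08 of QL08p039358, without LAY-15, rested on the 2 counts in HV-11-33. The cause of the following changes was not tested. At an unadjusted p under 0.05, 993 genes were higher and 929 lower in early seedlings with DESeq2, 345 and 196 with the literal CPM filter, which tested 14552 genes, and 1044 and 984 without YORK-09. The genes that were higher numbered 1354 with no covariate, 1061 with treatment alone and 294 without LAY-15, where 279 were lower. Leaving out 1 seedling gave 260 to 799 higher and 242 to 686 lower genes, and the larger number was then lower in early seedlings without LAY-15-09 (260 higher, 293 lower) and without LAY-15-03 (300 higher, 312 lower). The replicate block of family by treatment pairs gave 464 higher and 322 lower genes with edgeR and no call, and 88 calls with DESeq2. DESeq2 called 125 genes without HV-11, 440 without YORK-09 and 36 to 216 with 1 seedling left out. In controls, DESeq2 gave 299 calls and 2345 genes at an unadjusted p under 0.05, and leaving out 1 seedling gave 976 to 2072 such genes with edgeR. In treated seedlings the values were 35, 1329 and 423 to 978, and for the treatment by time test 165, 1860 and 691 to 1419. Within families DESeq2 called 156 genes in HV-11 (1792 at an unadjusted p under 0.05), 1975 in LAY-15 and 388 in YORK-09, and 1377 in the test between families (4325 at an unadjusted p under 0.05). The edgeR calls in LAY-15 ran from 0 to 297 with 1 seedling left out, the genes at an unadjusted p under 0.05 there from 1848 to 4650, and 0 genes were called with the 4 seedlings of LAY-15 alone. In the test between families, leaving out 1 seedling gave 0 to 1 calls, the 1 without LAY-15-03, and 1744 to 3710 genes at an unadjusted p under 0.05. With 1 pair left out, the early minus late difference ran from -0.00532 (without the YORK-09 treated pair) to 0.0595 for the TMM factor, and from -339 to 227 for genes counted and from -436 to 176 for genes counted at the smallest total (227 and 176 without the HV-11 control pair), so its sign changed. The share of variation with extraction time stayed between 8.02% and 19.4%, and the mean share over the swaps also rose with fewer seedlings. The lowest share, 8.02% without the LAY-15 control pair, stood beside a mean over swaps of 10.6%. The highest, 19.4% without YORK-09, stood beside a mean of 14.4%, and the 9.13% of all seedlings beside 8.78%. With a family or a pair left out, the smallest p that the swaps allow is 0.125 or 0.0625, so those fits could not pass 0.05.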

Other observations

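The nearest seedling in expression was of the same extraction time for 9 of the 12 seedlings and of the same family for 6 of the 12, where each seedling had 5 others of its extraction time and 3 others of its family. These counts were not tested against each other. Within families, extraction time took 51.9% of the variation in LAY-15, 39.4% in YORK-09 and 36.3% in HV-11, compared to 25.9%, 30.5% and 25% for treatment. The rest in each family, 22.2%, 30.1% and 38.7%, was the interaction of both, so each share rests on 4 seedlings with no residual spread and was not tested.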
